A study of Mustela putorius furo and Mus musculus with 4 samples.

Results

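*Olig1*, *Olig2*, *Nkx2-2*, *Sox10*, *Pdgfra*, *Cspg4* and *Lhfpl3* are 7 genes that mark the step from a cortical progenitor into the oligodendrocyte lineage. They were chosen by name, and all 7 are among the 17170 genes of the mouse table and the 22008 genes of the ferret table. The mouse data hold 1 single-cell RNA library of cortical cells each for *hGFAP-Cre*;*Smo* F/F embryos, called *Smo*-cKO, and for *Smo* F/F littermates, called control, which the labels give as wild type and which carries the floxed *Smo* allele without Cre. Both are labelled strain CD1. A CellTrace dye (Flash-Tag in the labels) was put into the lateral ventricle on embryonic day 17, and dyed cortical cells were sorted a day later, at E18. The *hGFAP-Cre* transgene acts in radial glial (RG) cells of the cortex and, later, in those of the lateral ganglionic eminence, while microglia arise outside the neural lineage and are not its direct targets. How many embryos gave each mouse library is not given in the sources used here. The ferret data are 2 sets of cells from the untreated wild type cortex of 1 embryo at E39. No group has a replicate, so differences between the mouse libraries compare those libraries, not the genotypes, and carry no p-value. Intervals are at 95% and cover counting error only.

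Oligodendrocytes, the myelin-forming cells of the central nervous system, come from RG cells through oligodendrocyte precursor cells (OPCs). In late cortical development the transcription factors *Olig1* and *Olig2* come on in dividing progenitors that can still give rise to more than 1 kind of cell, and many of these progenitors also carry the growth factor receptor *Egfr*. Commitment to the OPC fate is marked by *Sox10*, a transcription factor that later drives myelin genes, by *Pdgfra*, the receptor through which PDGF keeps OPCs dividing, and by the NG2 proteoglycan that *Cspg4* encodes. *Nkx2-2* is a homeodomain factor that helps time OPC differentiation, and *Lhfpl3* is a membrane protein gene commonly used to mark OPCs. Pericytes of blood vessels also make *Cspg4*. Sonic hedgehog (SHH) signals through *Smo*, and *Olig* genes are among its known downstream genes in the ventral neural tube.

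*Olig1* and *Olig2* are neighbours on mouse chromosome 16 and share a stretch of coding sequence. In the GENCODE M21 annotation of GRCm38, the mouse build that the labels name as mm10, *Olig2* lies from 91225457 to 91228677 and *Olig1* from 91269772 to 91271933, both on the plus strand, with 41094 bases between them. Olig1-201 has 1 exon, and the first transcript of *Olig2* has 2. The most alike coding stretch of the pair is printed here because it shows how near the genes come to sharing reads. It overlaps the part that encodes the basic helix-loop-helix domain, by which the proteins bind DNA and pair with a partner. Capitals mark the bases at which the genes differ, and each line is plus strand, 5′ to 3′.
*Olig1*, bases 272 to 362 of the 780-base coding sequence, chr16:91270148-91270238: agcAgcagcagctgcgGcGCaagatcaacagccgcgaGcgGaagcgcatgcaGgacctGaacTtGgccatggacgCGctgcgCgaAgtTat
*Olig2*, bases 314 to 404 of the 969-base coding sequence, chr16:91226713-91226803: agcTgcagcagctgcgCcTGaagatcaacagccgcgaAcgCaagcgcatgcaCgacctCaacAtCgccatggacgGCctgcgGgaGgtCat
Of these 91 bases, 76 are alike (83.5%), and the longest exact run that the 2 transcripts share is 17 bases. How the counting treated reads from this stretch is not given in the sources used here. The other members lie on chromosome 2 (*Nkx2-2*, 147177546 to 147194243, minus strand), chromosome 15 (*Sox10*, 79154908 to 79165240, minus strand), chromosome 5 (*Pdgfra*, 75152292 to 75198215, and *Lhfpl3*, 22746059 to 23275597, both plus strand) and chromosome 9 (*Cspg4*, 56865033 to 56899870, plus strand).

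After the filter of 750 to 5000 genes and under 10% mitochondrial counts, 10498 control and 7209 *Smo*-cKO cells remained, with medians of 4033.5 and 4836 UMIs (counted molecules), and 10185 and 13052 ferret cells, with medians of 2556 and 3563. *Smo* had a UMI in 388 control cells (3.70%) and in 20 *Smo*-cKO cells (0.277%). Libraries were assigned to genotypes by their barcode numbers, which match the cell numbers that the study states. *Prm1* is a sperm protamine gene whose end sequence is often used to terminate transgenes, and was picked after its values were seen. Whether the Cre transgene carries it is not given in the sources used here. It had a UMI in 0 of 10498 control cells, a count that allows a UMI in up to 0.0286% of cells, and in 2333 *Smo*-cKO cells (32.4%). In *Smo*-cKO, 1761 of the 2060 cells that passed the RG gate described below had a *Prm1* UMI. The libraries shared 28 barcodes in mouse and the ferret sets shared 38.

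The 4 transcription factors ranged from frequent to scarce. *Olig1* had a UMI in 448 control cells (4.27%) and 174 *Smo*-cKO cells (2.41%), and in 1.06% and 1.38% of the cells of ferret set 1 and set 2. *Olig2* was found in 664 control cells (6.33%), in 184 *Smo*-cKO cells (2.55%), and in 0.884% and 1.12% of ferret cells. Both *Olig* genes were thus found in a larger share of the sorted mouse cells than of the ferret cells, for which no sort is described. *Sox10* had a UMI in 20 control cells (0.191%), 14 *Smo*-cKO cells (0.194%), and 0.177% and 0.498% of ferret cells. *Nkx2-2* was the rarest member in mouse, with 15 control cells (0.143%) and 9 *Smo*-cKO cells (0.125%), and was found in 0.157% and 0.345% of ferret cells. UMIs are not divided by gene length, so these shares say how often a gene was found and not how its level compares with that of another gene.

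The receptor and the surface protein genes were found in fewer than 1 in 100 mouse cells each. *Pdgfra* had a UMI in 46 control cells (0.438%) and 17 *Smo*-cKO cells (0.236%), and in 0.550% and 1.02% of ferret cells. *Cspg4* was found in 42 cells of each mouse library, 0.400% of control and 0.583% of *Smo*-cKO, and in 0.245% and 0.260% of ferret cells. *Lhfpl3* stood apart between the species. It had a UMI in 28 control cells (0.267%) and 27 *Smo*-cKO cells (0.375%), but in 5.92% and 10.1% of ferret cells, where it was the most often found member. The plot of member shares by library shows *Lhfpl3* as the member whose ferret points lie far above its mouse points.

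**Figure D1:**
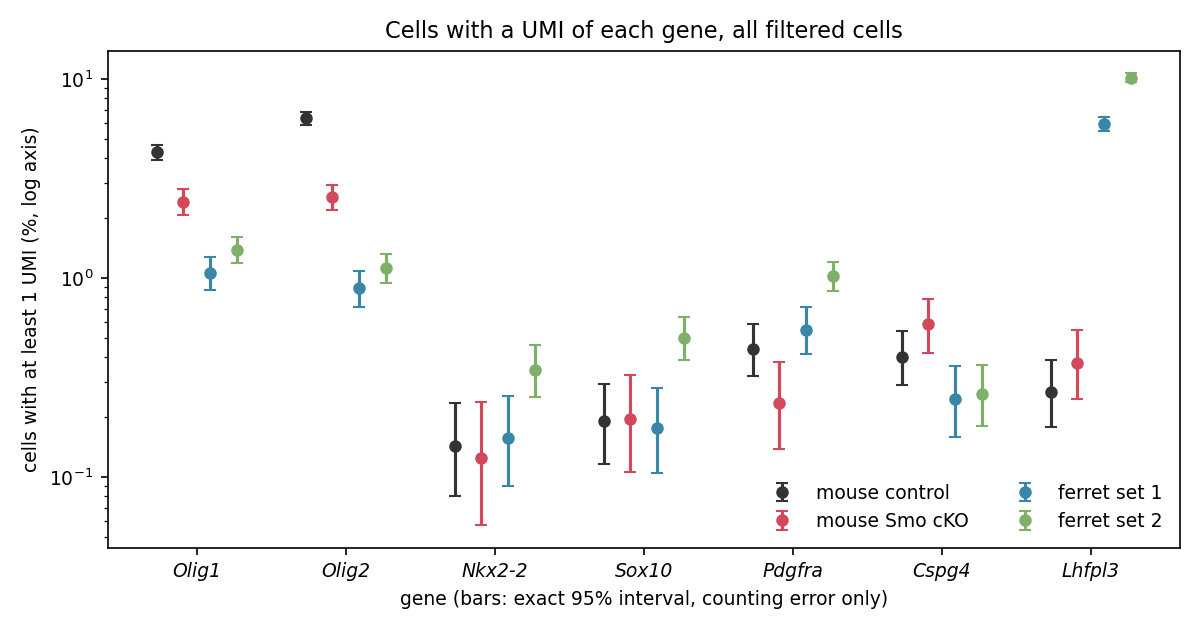
Share of filtered cells with at least 1 UMI of each of the 7 genes (log axis, percent) in the control and *Smo*-cKO mouse libraries and in ferret sets 1 and 2, with exact Clopper-Pearson 95% intervals. *Olig2* stands at 6.33% in control and 2.55% in *Smo*-cKO, and *Lhfpl3* sits at 5.92% and 10.1% in ferret against 0.267% and 0.375% in mouse.

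The study asked what the loss of SHH signaling through *Smo* does to cortical progenitors. Over all cells the *Olig* genes and *Pdgfra* were the members that stood lower in *Smo*-cKO. *Olig1* made 1607 UMIs in control and 758 in *Smo*-cKO, or 31.1 and 18.0 CPM (UMIs of the gene scaled to a fixed total per library), and the ratio was 0.579 (0.531 to 0.632, exact conditional interval). *Olig2* made 1807 and 575 UMIs, or 35.0 and 13.7 CPM, a ratio of 0.391 (0.355 to 0.430). *Pdgfra* was lower as well, with 172 and 87 UMIs, 3.33 and 2.07 CPM, and a ratio of 0.621 (0.474 to 0.809). The remaining members had intervals that include 1. *Sox10* stood at 53 and 59 UMIs (1.03 and 1.40 CPM, ratio 1.37, 0.927 to 2.02), and *Cspg4* at 56 and 62 UMIs (1.36, 0.932 to 1.99). *Lhfpl3* stood at 66 and 63 UMIs (1.17, 0.817 to 1.68), and *Nkx2-2* at 21 and 20 UMIs (1.17, 0.602 to 2.27). No difference of these 4 genes was therefore detectable at this depth over all cells, and the direction of *Sox10* and *Nkx2-2* depended on which cells were counted. With cells that passed 2 of the class gates described below left out, the log2 ratio was -1.12 for *Sox10* and -1.25 for *Nkx2-2* in place of 0.45 and 0.23, and that of *Pdgfra* was -3.15 in place of -0.69. This step took out 27.3% of control and 30.9% of *Smo*-cKO cells, among them 12 of the 16 control and 11 of the 13 *Smo*-cKO cells of the oligodendrocyte gate.

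Read against all genes, 1 member was past 2-fold. Of 13656 genes with at least 50 UMIs in the 2 mouse libraries together, 1.17% had a ratio of 0.5 or less and 5.32% a ratio of 2 or more. Among the 6 members that passed this filter (all but *Nkx2-2*), 1, *Olig2*, was at 0.5 or less and 0 were at 2 or more. The median log2 ratio was -0.23 over these 6 members and 0.05 over all genes.

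The shares of cells with a UMI differed in the same direction as the UMI sums for the *Olig* genes and *Pdgfra*. The difference was -1.85 percentage points for *Olig1* (Newcombe interval -2.38 to -1.32), -3.77 for *Olig2* (-4.36 to -3.18) and -0.202 for *Pdgfra* (-0.373 to -0.0234). With each cell thinned to 2900 UMIs, the expected *Pdgfra* shares were 0.353% and 0.179%. *Sox10* differed by 0.00369 points (-0.126 to 0.151) and *Cspg4* by 0.183 points (-0.0237 to 0.411). The cells that did have the genes held no fewer of them in *Smo*-cKO. An *Olig1* cell held 3.59 *Olig1* UMIs on average in control and 4.36 in *Smo*-cKO, and a *Pdgfra* cell 3.74 and 5.12 *Pdgfra* UMIs. These cells were deeper in *Smo*-cKO, with median totals of 6940.5 and 10871 UMIs for *Olig1* cells. In bulk sums of this kind, fewer cells with a gene and less RNA per cell cannot be told apart, so the genes were followed through classes of cells next.

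Cells were placed into 9 classes by gates of non-member markers, each cell going to the class with the largest share of its marker list found and at least 3 markers found. RG gate cells were 3303 (31.5%) of the control and 2060 (28.6%) of the *Smo*-cKO cells, with median depths of 5244 and 7541 UMIs. *Olig1* had a UMI in 359 of these control cells (10.9%) and in 145 of the *Smo*-cKO cells (7.04%). *Olig2* had a UMI in 450 (13.6%) and 111 (5.39%). Most *Olig* cells were of this gate, namely 80.1% and 83.3% of *Olig1* cells and 67.8% and 60.3% of *Olig2* cells. Pyramidal neurons (PyN), which should lack both genes, gave the background. In the PyN gate, with median depths of 3326 and 4083 UMIs, *Olig1* was found in 5 of 2338 control cells (0.214%) and 1 of 2210 *Smo*-cKO cells (0.0452%), and *Olig2* in 24 (1.03%) and 20 (0.905%).

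Within the RG gate the *Olig* genes and *Pdgfra* were all lower in *Smo*-cKO. *Olig1* made 1194 UMIs in control and 507 in *Smo*-cKO, a ratio of CPM of 0.506 (0.455 to 0.562). *Olig2* made 1332 and 400 UMIs, a ratio of 0.358 (0.319 to 0.400). *Pdgfra* had 51 UMIs in 21 control cells (0.636%) and 4 UMIs in 3 *Smo*-cKO cells (0.146%), a ratio of 0.0934 (0.0245 to 0.254). *Sox10* was at 14 UMIs in 6 cells and 1 UMI in 1 cell (0.0851, 0.00201 to 0.559). Of 11949 genes with at least 50 UMIs in this gate, 1.64% had a ratio of 0.5 or less and 2.76% a ratio of 2 or more. Of the 3 members that passed this filter, 2 (*Olig2* and *Pdgfra*) were at 0.5 or less and 0 at 2 or more. Thinned to 2900 UMIs per cell, which 3067 control and 1931 *Smo*-cKO RG gate cells reach, the expected shares were 7.70% and 3.76% for *Olig1*, 9.48% and 2.90% for *Olig2* and 0.342% and 0.0594% for *Pdgfra*. All 3 were thus lower in *Smo*-cKO at 1 depth as well. *Cspg4* (13 and 15 cells), *Lhfpl3* (9 and 6 cells) and *Nkx2-2* (10 and 5 cells) had ratios of 1.19, 0.695 and 0.550 on counts too low to read.

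The *Olig* genes were also lower in the gate of PyN intermediate progenitors, the *Eomes*-type cells that make pyramidal neurons. There *Olig1* had 69 UMIs in control and 15 in *Smo*-cKO (0.345, 0.183 to 0.609), in 26 of 3276 cells (0.794%) and 5 of 1855 cells (0.270%). *Olig2* was found in 93 (2.84%) and 29 (1.56%) cells, a ratio of 0.402 (0.273 to 0.581). In the inhibitory neuron gate, *Olig2* was found in 9 of 126 control and 1 of 268 *Smo*-cKO cells, and *Pdgfra* in 3 and 0. In the PyN intermediate progenitor gate *Pdgfra* differed the other way, with 0 of 3276 control cells and 3 of 1855 *Smo*-cKO cells (4 UMIs, 0.162 points, 0.00328 to 0.474). Microglia gate cells (93 and 176 cells, median 8258 and 7530 UMIs) had 0 UMIs of *Olig2*, *Sox10*, *Pdgfra*, *Nkx2-2* and *Lhfpl3*, and an *Olig1* UMI in 0 and 3 cells. *Cspg4* was found in a large share of the few mural gate cells as well as in progenitors. The RG gate held 13 and 15 of its 42 cells in each library. In the mural gate *Cspg4* was found in 11 of 22 control and 10 of 15 *Smo*-cKO cells, and in 5 of 23 and 9 of 20 cells of the ferret sets. The endothelial gate had it in 2 of 32 control and 0 of 13 *Smo*-cKO cells, and in 9 of 82 and 11 of 76 ferret cells. Mouse microglia gate cells had it in 2 of 93 and 5 of 176. The plot of shares by gate sets these values side by side.

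**Figure D2:**
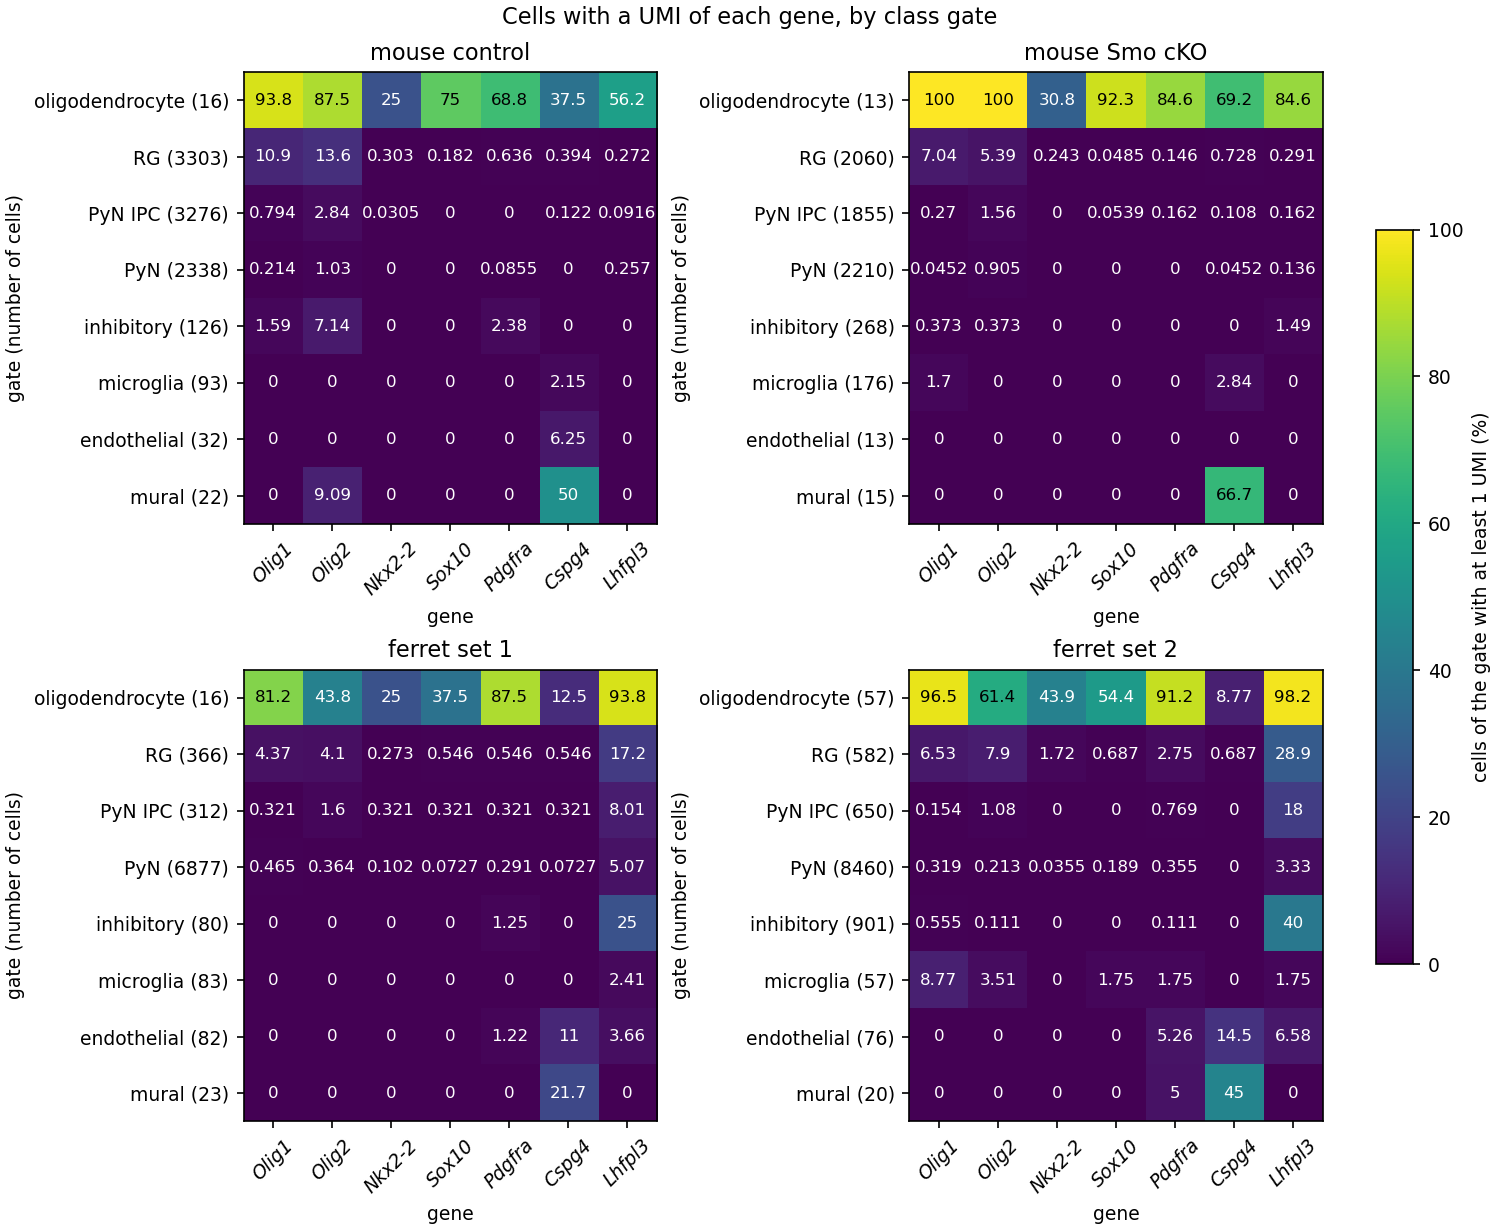
Share of cells with at least 1 UMI of each of the 7 genes in each marker gate, by mouse library and ferret set (percent, color scale, numbers of cells in brackets). The fibroblast gate, with 2 control and 3 *Smo*-cKO cells, is not drawn. In mouse both *Olig* genes fill the oligodendrocyte gate and reach 10.9% (*Olig1*) and 13.6% (*Olig2*) in the control RG gate, while mouse *Cspg4* is most frequent in the oligodendrocyte and mural gates.

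A small set of OPC-like cells was present in both mouse libraries and held most UMIs of *Sox10*, *Pdgfra* and *Lhfpl3*. The name rests on their gate alone, which used 9 oligodendrocyte genes that are not among the 7 members, 8 of which were in the mouse table: *C1ql1*, *Matn4*, *Gpr17*, *Cacng4*, *Pcdh15*, *Bcan*, *Tnr* and *Sox8*. It took 16 control cells (0.152%) and 13 *Smo*-cKO cells (0.180%), a difference of 0.0279 points (-0.0931 to 0.169). *Sox10* had a UMI in 12 of the 16 and 12 of the 13 cells, *Pdgfra* in 11 and 11, *Lhfpl3* in 9 and 11, *Cspg4* in 6 and 9 and *Nkx2-2* in 4 and 4. *Olig1* was found in 15 and 13 cells, and *Olig2* in 14 and 13. The OPC-like cells were not free of RG genes, with a median of 3 of the RG markers found in control and 5 in *Smo*-cKO, against 5 and 7 of their own. These few cells held 69.8% of all *Sox10* UMIs of control and 94.9% of those of *Smo*-cKO. For *Pdgfra* the gate held 54.7% and 90.8%, for *Lhfpl3* 63.6% and 73.0%, and for *Olig1* 11.4% and 25.9%. Its part was smaller for *Cspg4*, at 21.4% and 27.4%. For *Nkx2-2* it was 33.3% in control, where the RG gate held 61.9%, and 70.0% in *Smo*-cKO.

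Per cell, the member UMIs of OPC-like cells spanned overlapping ranges in both libraries, with medians equal or higher in *Smo*-cKO. *Olig1* ranged from 0 over a median of 10 to 26 UMIs per control cell and from 6 over 14 to 25 per *Smo*-cKO cell. *Pdgfra* ranged from 0 over 4 to 20 and from 0 over 7 to 12, and *Sox10* from 0 over 2 to 8 and from 0 over 4 to 8. The ranges overlap for every member. The median total was 8174.5 UMIs in control and 11313 in *Smo*-cKO cells, and as ratios of CPM the 7 genes lay between 0.759 (*Pdgfra*, 0.556 to 1.03) and 1.81 (*Nkx2-2*, 0.682 to 5.29). *Olig1* stood at 0.962 (0.783 to 1.18), *Olig2* at 0.798 (0.578 to 1.10) and *Sox10* at 1.37 (0.887 to 2.13), so each interval includes 1. These intervals cover the counting error of summed UMIs and not the spread between the 13 to 16 cells. They therefore do not exclude a difference of the size seen in the RG gate. The interval of the scarcer *Cspg4* runs from 0.576 to 2.94.

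Outside this gate *Pdgfra* was lower in *Smo*-cKO along with the *Olig* genes, and *Sox10* was lower by its UMI sum. *Pdgfra* had 78 UMIs in 35 control cells and 8 UMIs in 6 *Smo*-cKO cells, a ratio of 0.126 (0.0526 to 0.261). *Sox10* had 16 UMIs in 8 cells and 3 UMIs in 2 cells (0.231, 0.0430 to 0.805). Its share of cells differed by -0.0485 points (-0.125 to 0.0340), an interval that includes 0, whereas that of *Pdgfra* differed by -0.251 points (-0.388 to -0.115). *Olig1* stood at 433 and 161 cells (0.486, 0.440 to 0.536), and *Olig2* at 650 and 171 cells (0.356, 0.322 to 0.394). Over all cells *Sox10* had a ratio above 1, so its direction depended on whether the OPC-like cells were counted. The comparison outside the gate was added after the data were seen. With *Bcan* taken from the gate, or with at least 2 or at least 4 markers asked for, the log2 ratio outside the gate was -2.99, -2.89 and -2.99 for *Pdgfra* and -2.20, -1.93 and -2.20 for *Sox10*. *Cspg4* (44 and 45 UMIs, 1.26, 0.811 to 1.95) and *Lhfpl3* (24 and 17 UMIs, 0.871, 0.439 to 1.69) were not detectably different there.

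**Figure D3:**
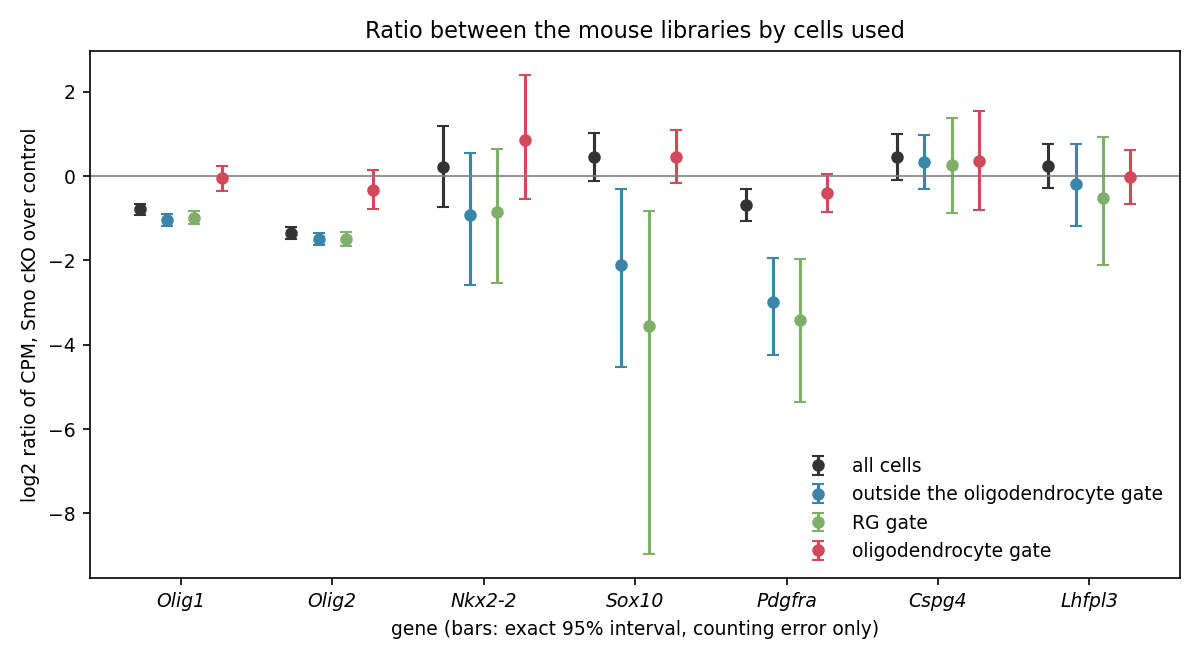
Log2 ratio of CPM, *Smo*-cKO over control, of each of the 7 genes over all cells, outside the oligodendrocyte gate, in the RG gate and in the oligodendrocyte gate, with exact conditional 95% intervals for counting error. The *Olig2* points lie below 0 except that the interval in the oligodendrocyte gate reaches past it, and *Pdgfra* lies at -0.69 over all cells and at -2.99 outside that gate.

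Cells with several cell cycle genes were more frequent among the OPC-like cells of control. Cells with at least 3 of 10 fixed genes of the G2 and M phases of the cell cycle numbered 6 of 16 in control (37.5%, 15.2 to 64.6%) and 1 of 13 in *Smo*-cKO (7.69%, 0.195 to 36.0%). All 10 genes had a ratio of 0.5 or less in this gate, as did 11.5% of the 3988 genes with at least 10 UMIs there. *Ube2c*, which drives the breakdown of mitotic proteins, had 93 UMIs in the control cells and 1 in those of *Smo*-cKO, and *Top2a*, which untangles chromosomes, had 37 UMIs in 6 cells and 2 UMIs in 2 cells. The share intervals overlap, and so few cells of 1 library each do not show whether OPC-like cells of the genotypes divide at different rates. In the RG gate the shares of cells with an *Olig1* or *Olig2* UMI lay closer together. At least 3 of the 10 genes were found in 391 of 561 (69.7%) in control and 123 of 187 (65.8%) in *Smo*-cKO. RG gate cells without an *Olig* UMI stood at 37.9% and 26.9%. The *Olig* cells of this gate were deeper in *Smo*-cKO (median 6799 and 10780 UMIs), which raises shares. By CPM the 10 genes together were lower there, at 3595 (3539 to 3653) in control and 2995 (2921 to 3069) in *Smo*-cKO.

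*Sox10* and *Nkx2-2* were found in mouse almost wholly inside the *Olig* cells, while few *Olig* cells held either. Of 20 control *Sox10* cells, 19 also had *Olig1*, 17 had *Olig2*, 17 had *Pdgfra* (85.0%) and 15 had *Lhfpl3* (75.0%). The 14 *Smo*-cKO *Sox10* cells all had *Olig1* and *Olig2*, and 11 had *Pdgfra*. *Nkx2-2* cells carried the *Olig* genes as often, with *Olig2* in 14 of 15 control cells and 9 of 9 *Smo*-cKO cells. In the other direction, 19 of 448 control *Olig1* cells (4.24%) and 14 of 174 *Smo*-cKO *Olig1* cells (8.05%) had *Sox10*. Among control cells without *Olig1*, 1 of 10050 had *Sox10* (0.00995%). In ferret the tie was looser, as 53 of 83 *Sox10* cells had *Olig1* (63.9%) and 36 had *Olig2* (43.4%), and 39 of 61 *Nkx2-2* cells had *Olig2* (63.9%). Deeper cells show any pair more often, and these shares are a description of 1 library each.

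The *Olig* genes overlapped only in part. *Olig2* was found in 308 of 448 control *Olig1* cells (68.8%), against 3.54% of cells without *Olig1*, and in 89 of 174 *Smo*-cKO *Olig1* cells (51.1%). *Olig1* was found in 46.4% of control and 48.4% of *Smo*-cKO *Olig2* cells. *Pdgfra* cells had *Olig2* in 34 of 46 control cells (73.9%) and *Sox10* in 17 (37.0%), while in *Smo*-cKO 11 of 17 had *Sox10* (64.7%). *Cspg4* cells had *Olig2* least often, in 13 of 42 cells in control and in 10 of 42 in *Smo*-cKO. The grid of co-detection shares shows the row of *Sox10* as the fullest in both mouse libraries.

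**Figure D4:**
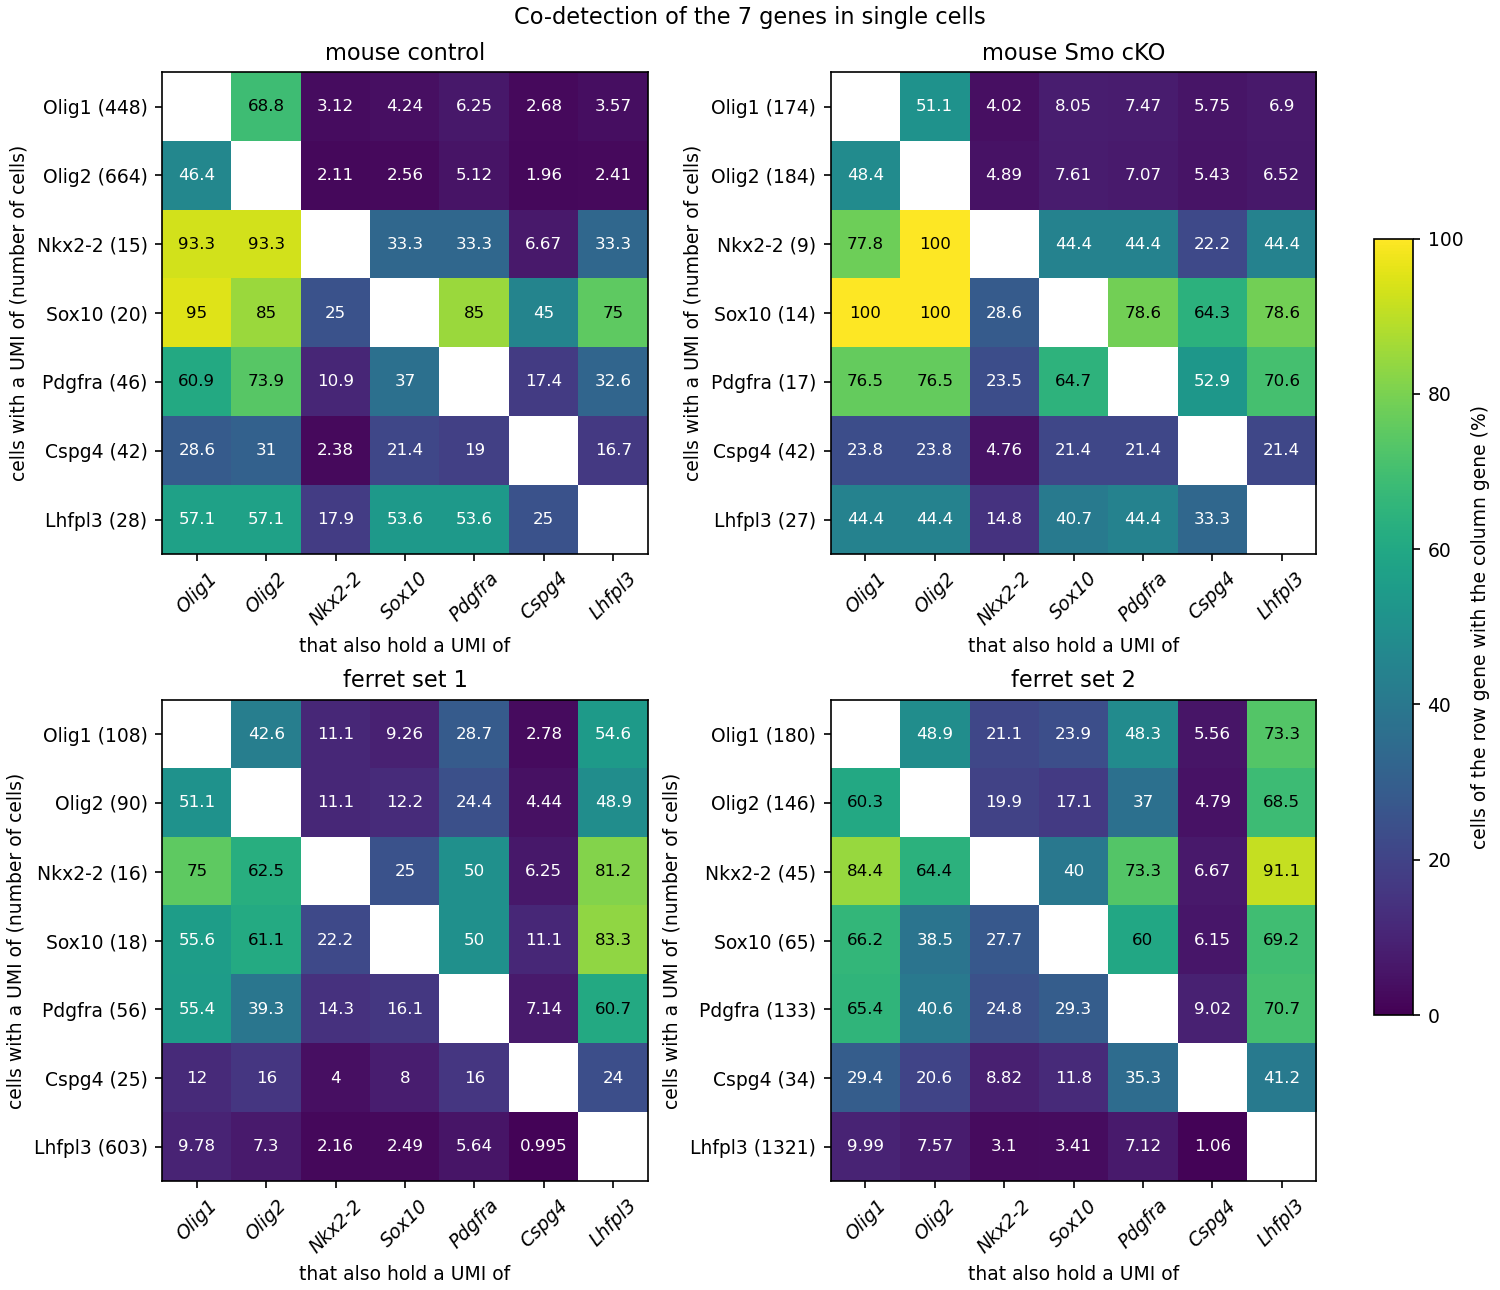
Share of cells with the row gene that also had a UMI of the column gene (percent, color scale), for control, *Smo*-cKO and both ferret sets, with the number of row cells in brackets. In control, 19 of 20 *Sox10* cells had *Olig1*, whereas 4.24% of *Olig1* cells had *Sox10*.

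Each cell was then placed by which members it held. Cells with an *Olig* UMI and none of the other 5 members (*Olig*-alone cells) numbered 749 in control (7.13%) and 246 in *Smo*-cKO (3.41%), which differ by -3.72 points (-4.37 to -3.07). Cells with an *Olig* UMI and at least 1 of the other 5 (*Olig*-plus cells) numbered 55 (0.524%) and 23 (0.319%), a difference of -0.205 points (-0.395 to -0.00475). As a share of all *Olig* cells, *Olig*-plus cells made 6.84% in control (55 of 804, 5.19 to 8.81%) and 8.55% in *Smo*-cKO (23 of 269, 5.50 to 12.6%), and these intervals overlap. The RG gate held 530 of 749 control and 177 of 246 *Smo*-cKO *Olig*-alone cells. *Olig*-plus cells split differently, with 31 in the RG gate and 13 in the oligodendrocyte gate in control, and 10 and 12 in *Smo*-cKO. Outside the oligodendrocyte gate, cells with both *Pdgfra* and an *Olig* gene numbered 25 in control and 2 in *Smo*-cKO (-0.211 points, -0.326 to -0.104). Single cells with 6 or 7 of the 7 members numbered 11 in both libraries, while cells with 2 members numbered 283 in control and 74 in *Smo*-cKO.

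*Egfr* was more frequent in *Olig*-alone cells than in cells with no member. In control it was found in 42.9% against 3.60%, and its CPM was 11.1-fold higher (9.77 to 12.6), and in *Smo*-cKO it stood at 22.4% against 1.20% (13.8-fold). Of the 9644 control cells with no member, 2728 were of the RG gate, so the states were also compared inside the RG gate, a step added after the data were seen. There *Egfr* was found in 265 of 530 control *Olig*-alone cells and 197 of 2728 no-member cells (7.22%), with a CPM 7.39-fold higher (6.33 to 8.64). In *Smo*-cKO it was found in 50 of 177 (28.2%) and 48 of 1854 (2.59%) RG gate cells, 9.28-fold higher by CPM (6.68 to 12.9). *Egfr* was thus more frequent in the *Olig* cells within the RG gate too.

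SHH pathway genes differed less once RG gate cells were compared with each other. Over all cells, 5 of 11 were at least 2-fold higher and 0 lower in control *Olig*-alone than in no-member cells, and in *Smo*-cKO 2 of 8 were higher and 1 lower. *Ptch1*, which SHH signaling induces and which holds *Smo* in check, was found in 18.8% against 4.96% of control cells (2.82-fold, 2.36 to 3.35) and in 2.03% against 0.798% of *Smo*-cKO cells. Inside the RG gate 2 of 11 were higher and 1 lower in control, and *Ptch1* was 1.74-fold higher (1.42 to 2.11), in 22.6% against 10.7% of cells. *Gas1*, a co-receptor for SHH, was 3.33-fold higher over all control cells and 1.61-fold higher (1.52 to 1.70) inside the gate. Between control *Olig*-alone and *Olig*-plus cells of all gates, 6 of 10 SHH pathway genes were at least 2-fold lower in the latter. In *Smo*-cKO 1 of 7 was lower and 1 was higher. The control states differ in their cells, as the oligodendrocyte gate held 13 of 55 *Olig*-plus and 2 of 749 *Olig*-alone cells. These counts between states have no share over all genes beside them.

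The size of the difference in cell cycle genes also depended on the cells compared. All 10 were at least 2-fold higher in *Olig*-alone than in no-member cells in both mouse libraries and in ferret set 2, and 7 of 10 in ferret set 1. Inside the RG gate all 10 were still higher in *Olig*-alone cells of both mouse libraries, with intervals above 1. Ratios of CPM ran from 1.35 (*Cenpe*) to 1.94 (*Ube2c*) in control and from 1.69 (*Cenpf*) to 2.46 (*Ube2c*) in *Smo*-cKO. By the 2-fold mark, 0 of 10 were past it in control and 6 of 10 in *Smo*-cKO. *Olig*-alone cells were deeper than most, with medians of 6250 and 8990.5 UMIs, which raises shares but not ratios of CPM.

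*Olig*-plus cells had more of the genes of the oligodendrocyte lineage. *Gpr17*, a receptor of cells between the OPC and the oligodendrocyte, was found in 11 of 55 control (20.0%) and 8 of 23 *Smo*-cKO cells (34.8%), and in 0 *Olig*-alone cells of either library. *Matn4* was found in 23.6% and 52.2% of *Olig*-plus cells against 1.87% and 3.25% of *Olig*-alone cells, and its CPM was 19.7-fold higher in control (10.8 to 37.2). *Cnp*, a myelin enzyme gene, was found in 30.9% and 52.2% against 10.0% and 13.0%. *Gsx2*, a homeodomain factor of the ventral forebrain, was found in 0.529% of no-member, 6.81% of *Olig*-alone and 25.5% of *Olig*-plus cells in control, and in 0.435%, 2.44% and 21.7% in *Smo*-cKO. *Ptch1* was low in *Smo*-cKO *Olig*-alone cells but had 17 UMIs in 4 of the 23 *Olig*-plus cells (56.2 CPM, 32.7 to 89.9), against 10 UMIs in 7 of 55 control cells (20.5 CPM, 9.81 to 37.6). Astroglial genes were lower in control *Olig*-plus cells, where 6 of 7 were at least 2-fold lower in *Olig*-plus than in *Olig*-alone cells, among them *Aldoc* at 0.249 and *Slc1a3*, a glutamate transporter, at 0.398. In *Smo*-cKO 2 of 7 were lower and 1 was higher. These comparisons are within a library, and the genes shown in the plot of shares by state were picked from the fixed lists after their values were seen.

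**Figure D5:**
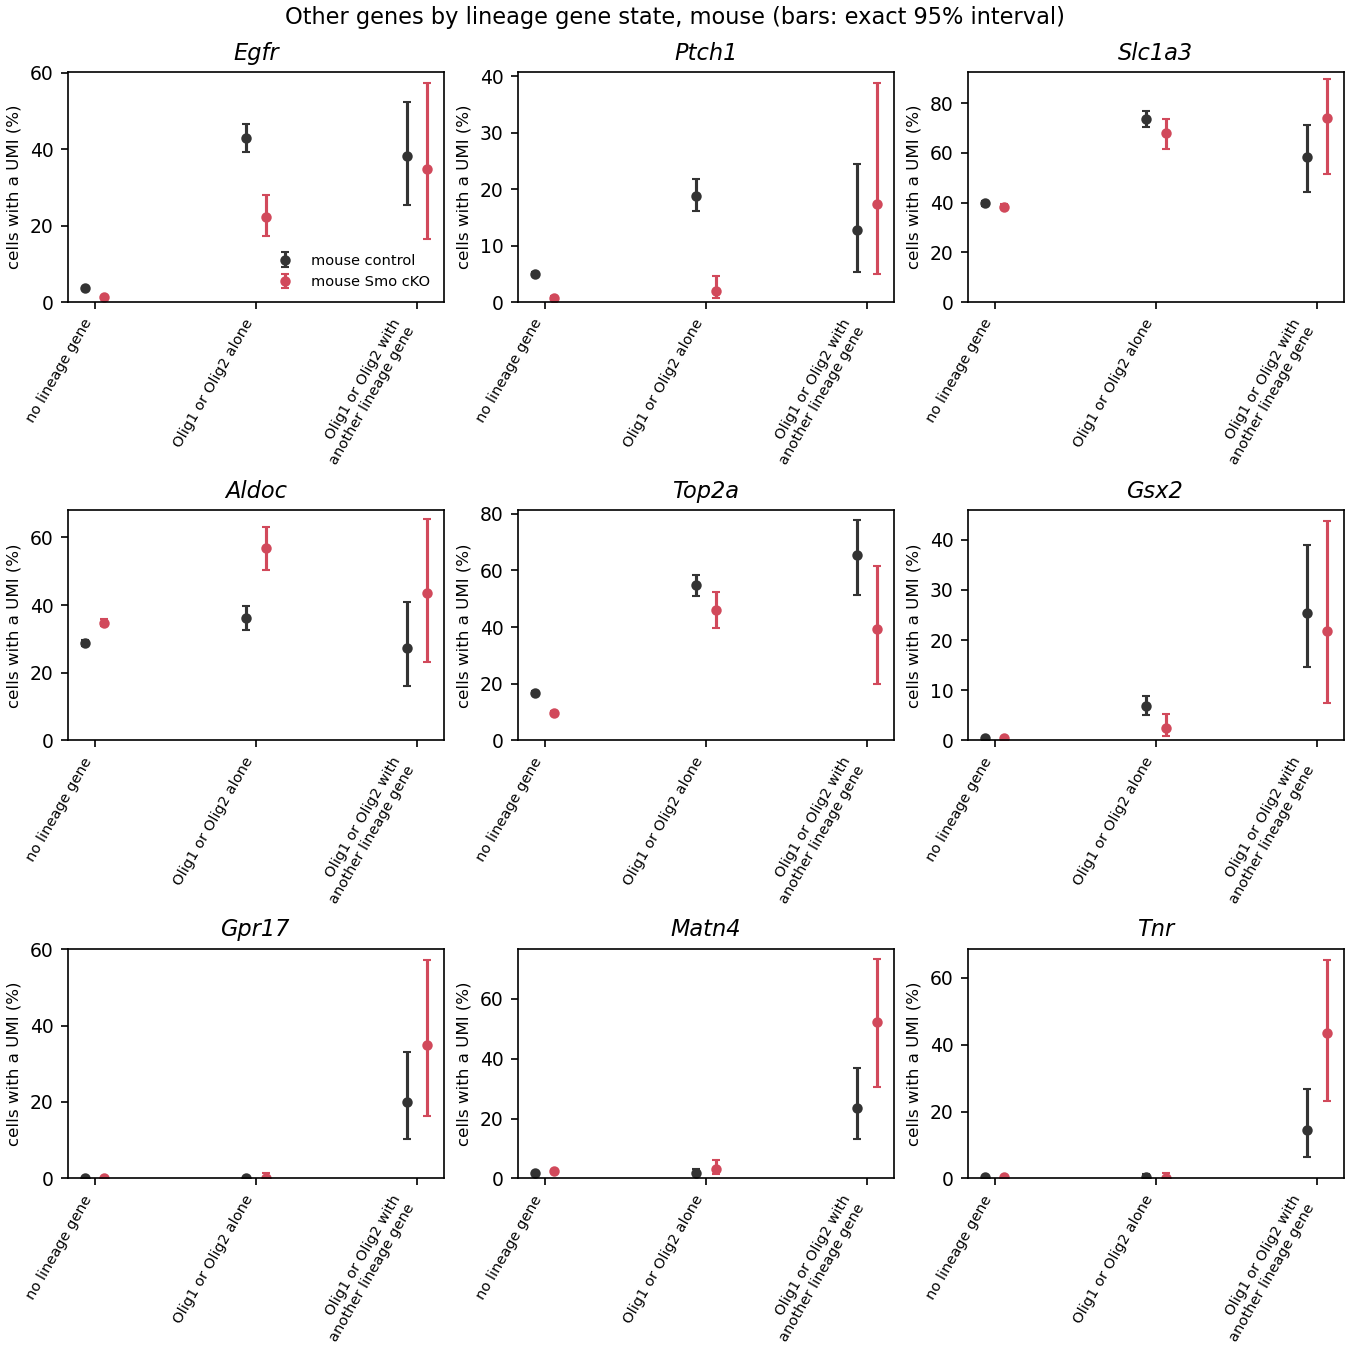
Share of cells with a UMI of 9 genes (percent) among cells with no member, *Olig*-alone cells and *Olig*-plus cells of control and *Smo*-cKO, with exact 95% intervals. *Egfr* and *Ptch1* are already more frequent in control *Olig*-alone than in no-member cells of all gates, while *Gpr17*, *Matn4* and *Tnr* are frequent in *Olig*-plus cells alone.

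In the RG gate *Smo* had a UMI in 261 of 3303 control cells (7.90%) and 6 of 2060 *Smo*-cKO cells (0.291%). Among *Olig*-alone, *Olig*-plus and OPC-like cells, loss of *Smo* UMIs could be read in the *Olig*-alone cells only. *Smo* had a UMI in 53 of 749 control *Olig*-alone cells (7.08%) and in 0 of 246 *Smo*-cKO *Olig*-alone cells, a count that allows a UMI in up to 1.22% of cells. *Olig*-plus cells could not be read this way, since *Smo* was found in 2 of 55 control and 0 of 23 *Smo*-cKO cells, which allows up to 13.0%. Nor could OPC-like cells, since *Smo* was found in 0 of 16 control and 0 of 13 *Smo*-cKO cells. *Prm1*, found in *Smo*-cKO alone, was present in 163 of 246 *Olig*-alone cells (66.3%), 19 of 23 *Olig*-plus cells (82.6%) and 12 of 13 OPC-like cells. A *Prm1* UMI does not show whether *Smo* was deleted in a cell.

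Genes around the members were read from lists. Of the SHH pathway genes, those with a ratio of 0.5 or less over all cells included *Smo*, its target *Gli1* (0.0182), *Ptch1* (0.156) and *Hhip*, an SHH-binding inhibitor with 46 UMIs in control and 0 in *Smo*-cKO. *Egfr* had 1066 and 220 UMIs, a ratio of 0.253 (0.218 to 0.293). Among 5 genes of the PDGF family, 0 were past 2-fold, with *Pdgfa*, a ligand of *Pdgfra*, at 1.04. Of 9 differentiation genes 1 was past 2-fold, namely *Myrf*, the regulator of myelin genes, at 5 and 11 UMIs (2.70, 0.866 to 9.92). Of 7 SoxE and NFI genes, *Sox8* was at 0.452. All 10 cell cycle genes lay within 2-fold, with a median log2 ratio of -0.82. Among 9 inhibitory neuron genes 1 was past 2-fold, *Gad1* at 2.66, and their median log2 ratio was 0.66. In the RG gate that median was -0.33, and the inhibitory neuron gate held 126 control and 268 *Smo*-cKO cells. Of 7 astroglial genes, *Aqp4*, a water channel of astrocytes, was at 3.03 and *Sparcl1*, a secreted matrix protein gene, at 0.312.

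The genes most like the *Olig*-plus state were ranked by phi, the correlation of having a UMI with being in that state, over the control cells. Of 12369 non-member genes found in at least 50 control cells, *Cntn1* came first with a phi of 0.311 in control, 0.336 in *Smo*-cKO and 0.105 in ferret, and 17 of the 53 control cells with *Cntn1* were *Olig*-plus cells. *Sulf2* (0.218 and 0.199 in control and *Smo*-cKO), *Rasl11a* (0.191 and 0.168), *Nxph1* (0.166 and 0.153) and *Gsx2* (0.164 and 0.159) followed. *Mgll* (0.152 and 0.0855), *Grm5* (0.131 and 0.0938) and *Xylt1* (0.128 and 0.177) were also among the first 10. *Enpp2* and *Timp4* had higher values in *Smo*-cKO (0.248 and 0.255) than in control (0.153 and 0.119). In ferret, *Gsx2* had the highest value of these genes at 0.301, and *Rasl11a* stood at -0.00476. These values rest on 55 and 23 *Olig*-plus mouse cells.

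In the ferret cortex the members were frequent in the oligodendrocyte gate, but most of the cells with a member lay outside it. The gate held 68 of the 288 *Olig1* cells (23.6%), 42 of the 236 *Olig2* cells (17.8%), 66 of the 189 *Pdgfra* cells (34.9%) and 37 of the 83 *Sox10* cells (44.6%) of both sets. The PyN gate held 20.5% of the *Olig1* and 26.5% of the *Pdgfra* cells, less than its 66.0% of all ferret cells. The oligodendrocyte gate took 16 cells of set 1 (0.157%, median 2326.5 UMIs) and 57 of set 2 (0.437%, median 3309 UMIs). *Pdgfra* had a UMI in 14 of 16 and 52 of 57 of them, *Olig1* in 13 and 55, *Olig2* in 7 and 35, *Sox10* in 6 and 31, *Nkx2-2* in 4 and 25 and *Cspg4* in 2 and 5. *Lhfpl3* was found in 15 of 16 and 56 of 57. In the RG gate it was found in 63 of 366 (17.2%) and 168 of 582 cells (28.9%), and in the inhibitory neuron gate in 20 of 80 (25.0%) and 360 of 901 cells (40.0%). The ferret PyN gate (median 2794 and 4251 UMIs) stood at 5.07% and 3.33%. In mouse, 0 of 126 and 4 of 268 inhibitory gate cells had *Lhfpl3*. Of set 2 *Lhfpl3* cells, 132 of 1321 (9.99%) had *Olig1*, whereas 87 of 133 *Pdgfra* cells (65.4%) did, so in these ferret cells *Lhfpl3* alone did not mark the *Olig* cells.

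A larger part of the ferret *Olig* cells held a further member than of the mouse *Olig* cells. It was 75 of 152 (49.3%) in set 1 and 153 of 238 (64.3%) in set 2, and without *Lhfpl3* 27.6% and 41.6%, against 6.59% and 8.55% in control and *Smo*-cKO. Species, age, sorting and gene models differ between these data and cannot be told apart. In the ferret RG gate *Olig1* was found in 16 (4.37%) and 38 cells (6.53%), *Olig2* in 15 (4.10%) and 46 (7.90%) and *Pdgfra* in 2 and 16 (2.75%). PyN gate cells had *Olig1* in 32 (0.465%) and 27 cells (0.319%). The 2 sets come from 1 embryo, and set 2 was higher for all members but *Cspg4* by CPM, from 3.99 and 4.39 for *Olig2* to 31.2 and 63.3 for *Lhfpl3*.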

How the data were processed

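Droplet-based (10x Genomics Chromium) libraries were made from dissociated cortex. The authors deposited 1 table per species of raw UMI counts per gene and cell, made with Cell Ranger. The submitters' processing notes also name StringTie and Seurat 3 and the mouse build mm10. The Cell Ranger version, the annotation and the ferret build are not given in the sources used here. Barcode suffixes separate the libraries. The mouse suffix with 10524 barcodes was taken as control and the one with 7596 as *Smo*-cKO, from the cell numbers that the study states, and the ferret suffixes were not tied to its 2 samples. Every column of cells was used, with 0 left unassigned.

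Cells with 750 to 5000 genes and under 10% mitochondrial counts were kept. Class gates needed at least 3 markers, ties were left unplaced, and no doublet caller was run. CPM divides the UMI sum of a gene by the UMI total of the cells used and brings that total to one common size. Shares have Clopper-Pearson, differences of shares Newcombe, and ratios of CPM exact conditional binomial intervals. Expected shares with each cell thinned to 2900 UMIs (mouse) or 2000 (ferret) were computed without drawing. With 1 library per genotype there is no test between them. Depth sets the precision: a count of 0 allows up to 3 counts of the total. PCR and droplet effects are not in the intervals.

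The members and gene lists were chosen with earlier results of these data known. The text names the 7 members, the genes of the lists that were past 2-fold between states or libraries, and the 10 genes most like the *Olig*-plus state by phi. A few genes of the lists under 2-fold are named for context, and these and *Prm1* were chosen after their values were seen. Among the list genes, *Neu4*, *Mog*, *Mobp*, *Opalin*, *Enpp6*, *Bmp4*, *Agt* and *Lum* were not analysed here in mouse, and *Mbp*, *Cnp*, *Gfap* and *Hhip* were among those not analysed here in ferret. Results on some list genes are not reported here. Sequences came from GRCm38 with GENCODE M21. Scripts were tested on simulated data and used Python 3.11.15, NumPy 2.4.6, SciPy 1.17.1, Matplotlib 3.10.9 and Biopython 1.88.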

Additional observations from a re-analysis of the deposited data

How the results depend on the processing

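Of the 7 genes' log2 ratios over all cells, the direction of *Olig1*, *Olig2* and *Pdgfra* was kept under every alternative run. Those were all deposited cells, at least 1000 genes per cell, non-neural gates left out, cells passing 2 gates left out, median-ratio scaling and, for shares, thinning and at least 2 UMIs. *Cspg4* and *Lhfpl3* also kept their direction in these runs, both higher in *Smo*-cKO. The share difference of *Cspg4* excluded 0 with all deposited cells (0.210 points, 0.00183 to 0.439). It also did so with cells passing 2 gates left out (0.204 points, 0.0267 to 0.423). With cells passing 2 gates left out, the log2 ratio was -1.18 for *Olig1* (-0.79 over all cells), -1.78 for *Olig2* (-1.36), -1.25 for *Nkx2-2* (0.23), -1.12 for *Sox10* (0.45) and -3.15 for *Pdgfra* (-0.69). Added after the data were seen were 2 further sets of cells. In the RG gate alone, it was -0.98 for *Olig1*, -0.86 for *Nkx2-2*, -3.56 for *Sox10*, -3.42 for *Pdgfra* and -0.53 for *Lhfpl3* (0.23). With the oligodendrocyte gate left out, it was -1.04 for *Olig1*, -0.92 for *Nkx2-2*, -2.12 for *Sox10* and -2.99 for *Pdgfra*. These sets hold fewer cells by construction, and the cause was not tested further. The share of *Olig* cells with another member was 4.67% in control (6.84%) and 4.09% in *Smo*-cKO (8.55%) without cells passing 2 gates. In ferret (58.5% over both sets) it was 76.1% at 2 or more UMIs, 49.3% in set 1 and 64.3% in set 2. The share differences of *Olig1* and *Olig2* at 2 or more UMIs were -1.25 and -2.06 points, and that of *Pdgfra* was -0.0812 (-0.216 to 0.0658), which no longer excludes 0. No paired analysis was possible because each genotype has 1 library and no test was run between them. Depth limits the scarce members most: *Nkx2-2* rests on 21 and 20 UMIs, the oligodendrocyte gate on 16 and 13 cells, and 354 *Smo*-cKO barcodes fell under the gene minimum.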

Other observations

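Cells with 1 of the other 5 members but no *Olig* UMI numbered 50 in each mouse library, 0.476% of control and 0.694% of *Smo*-cKO cells. *Pdgfrb*, the PDGF receptor of pericytes, was found in 17 of the 50 control and 14 of the 50 *Smo*-cKO cells. In the ferret sets such cells numbered 575 and 1249. In OPC-like cells, 2 of 7 SoxE and NFI list genes had a ratio of CPM of 0.5 or less, *Nfia* at 0.488 (0.335 to 0.704) and *Zfp36l1* at 0.428 (0.230 to 0.768), beside 11.5% of all genes compared in that gate. Of the other 5, *Sox8*, itself a marker of the gate, was at 2.39 (1.34 to 4.46) and 4 were under 2-fold. *Cnp* was found in 11 of 16 and 10 of 13 OPC-like cells, and *Mbp*, a myelin protein gene, in 1 and 4. In the same cells *Mag*, *Nkx6-2*, *Aldh1l1*, *Aqp4* and *Gfap* had 0 UMIs in both libraries.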
